A study of Bos grunniens with 3 samples.

Results

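The genes described here are the interferon response genes of yak skin and hair follicle. They were chosen by symbol alone: the interferon receptor genes (IFNAR and IFNGR), the STAT and IRF transcription factor genes, *TRIM21* and *TRIM25*, and genes known to be induced by interferon, namely the IFI, IFIT, ISG, OAS and MX families, *PARP9*, *PARP14*, *RSAD2* and *DDX58*. The rule found 41 genes among 26924 in the matrices, of which 15765 carry a symbol. By role they are 3 receptor genes, 7 STAT genes, 8 IRF genes, 2 TRIM genes and 17 interferon-induced genes. The remaining 4 (*IRF2BP1*, *IRF2BP2*, *IRF2BPL* and *ISG20L2*) matched through their names and are not themselves interferon response genes. *IRF7*, *IFNAR2*, *MX2*, *BST2*, *USP18* and the IFITM genes were not analysed here.

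Interferons are secreted proteins that bind receptors on the cell surface. The type I receptor (IFNAR1 with its partner chain) and the type II receptor (IFNGR1 with IFNGR2) activate JAK kinases, which phosphorylate STAT proteins. STAT2 and IRF9 are parts of the factor that switches on the interferon-induced genes after a type I signal. The induced proteins include sensors of viral RNA such as IFIH1 and DDX58, antiviral effectors such as MX1, the OAS and the IFIT proteins, and the ubiquitin-like modifier ISG15. The hair follicle cycles through growth (anagen), regression (catagen) and rest (telogen), and the growing follicle below the bulge is known as a site of immune privilege, where antigen presentation is kept low.

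The samples were 3 10x Genomics single-cell libraries of polyA RNA from scapular skin of healthy Tianzhu white yak (Bos grunniens) about 2 years old, 1 library each from anagen, catagen and telogen. The tissue was digested with enzymes, hairs were pulled and cells were released with trypsin. The protocol text of the catagen library names anagen, so its stage rests on its title, description and stage label. The number of animals behind each library is not given in the labels, and each stage has a single library and no replicate: stage, animal and library cannot be told apart, and no p-value is given. The file headers also name a different Cell Ranger version for each library, which cannot be told apart from stage either.

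After removal of cells with fewer than 200 detected genes, 11987 anagen, 12062 catagen and 14502 telogen cells were kept. They held 82816430, 51537357 and 103430933 unique molecular identifiers (UMIs, one per captured RNA molecule). The median cell held 5256, 3350 and 5583.5 UMIs, and the smallest cell 2404 UMIs in anagen against 500 in catagen and 500 in telogen. Levels are UMIs of a gene scaled to a total of 1000000 UMIs over the same cells (CPM), with exact Poisson 95% intervals. Ratios are log2 with exact binomial 95% intervals. Both cover counting error only, with every UMI taken as independent, and say nothing of the spread between cells or between animals. Where few cells hold most UMIs of a gene, these intervals are too narrow. Where a gene had 0 UMIs, the level or share that 3 counts would give is stated as its upper limit. Levels of different genes also depend on how well each 3' end is annotated and carry no length scaling, so genes are not ranked against each other. The matrices give Ensembl identifiers without positions, among them ENSBGRG00000016212 for *ISG15*, ENSBGRG00000014066 for *MX1*, ENSBGRG00000011996 for *IFI6*, ENSBGRG00000026165 for *IFI30*, ENSBGRG00000003116 for *IRF1*, ENSBGRG00000016917 for *IRF9* and ENSBGRG00000017269 for *TRIM25*. Between 40 and 49 cell barcodes were shared by each pair of libraries.

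Over the whole libraries, anagen had the highest level of *ISG15*, *MX1*, *IFI6* and *OAS1*, which are effectors, of *IRF1* and *IRF9*, which are transcription factors, and of *TRIM25*, an E3 ligase that acts on *DDX58*. *STAT3* and *IRF3* differed by at most 1.26-fold over the 3 stages. *IFI30*, a lysosomal thiol reductase of antigen processing, had another order, with telogen highest and catagen lowest. *IFI35* shared that order, and *IFIT5* was lowest in anagen.

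The receptor genes were seen in every library. *IFNAR1* was at 12.6 CPM in anagen, 6.27 in catagen and 5.87 in telogen. *IFNGR1* was at 48.6, 40.0 and 37.0 CPM in the same order. Both thus had their highest level in anagen. *IFNGR2* had the reverse order, with 10.0 CPM in anagen, 14.4 in catagen and 15.3 in telogen. Against anagen, the log2 ratio of *IFNAR1* was -1.01 in catagen (95% interval -1.19 to -0.83) and -1.10 in telogen (-1.25 to -0.96), so a 2-fold difference lies inside both intervals.

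*STAT2*, which works with *IRF9*, was low at 2.95 CPM in anagen, 3.40 in catagen and 3.25 in telogen. *STAT3*, which mainly serves cytokines of the interleukin-6 family, was at 28.5, 26.0 and 32.8 CPM. *STAT6*, which serves interleukin-4 and interleukin-13, was at 7.91, 11.7 and 6.92 CPM. None of these genes passed 2-fold in any of the 3 pairs of stages. *STAT4*, a lymphocyte gene, had 7, 0 and 16 UMIs in the whole libraries, where a count of 0 in catagen allows up to 0.0582 CPM (3 counts).

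Among the IRF genes, *IRF9*, the DNA-binding part of the type I interferon factor, was at 34.3 CPM in anagen, 10.6 in catagen and 11.6 in telogen. *IRF1*, an activator that interferon itself induces, was at 71.7, 28.7 and 39.3 CPM. Anagen was the highest for both, by 3.25-fold over catagen for *IRF9* and 2.50-fold for *IRF1*. *IRF2*, which competes with *IRF1* for its sites, was lowest in anagen, with 34.5 CPM against 47.7 in catagen and 43.6 in telogen. *IRF3*, which viral RNA sensors activate, was at 49.4, 47.7 and 57.3 CPM. *IRF2* and *IRF3* stayed under 1.5-fold in every pair. *IRF8* and *IRF4*, genes of immune cells, had 16, 9 and 8 UMIs and 2, 1 and 4 UMIs in all.

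*TRIM25* was at 48.6 CPM in anagen, 15.9 in catagen and 14.2 in telogen, log2 ratios to anagen of -1.61 (-1.72 to -1.51) and -1.78 (-1.87 to -1.69). The levels of the 2 later stages thus lay far below anagen and near each other. *TRIM21*, an intracellular antibody receptor, was at 2.55, 2.52 and 2.96 CPM. *IRF2BP2*, a corepressor that binds *IRF2*, was at 331 CPM in anagen against 162 in catagen and 164 in telogen.

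The induced genes summed to 311 CPM in anagen, 174 in catagen and 250 in telogen. *ISG15* and *IFI30* held most of that sum, 34.7% and 35.1% of it in anagen and 13% and 59.3% in telogen, so the sum mainly follows these 2 genes. With *IFI30* left out, a choice made after the values were seen, it was 202, 102 and 102 CPM. With both left out it was 93.7, 55.9 and 69.3 CPM. Anagen had the highest sum in each version. The log2 ratio of telogen to catagen was 0.52 for the full set and 0.31 with both genes left out (0.25 to 0.37), and with *IFI30* alone left out its interval included 0 (-0.05 to 0.04).

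*ISG15* was at 108 CPM in anagen (105.7 to 110.2), 46.4 in catagen (44.5 to 48.3) and 32.5 in telogen (31.4 to 33.6). *MX1*, a GTPase that blocks viral replication, was at 16.4 CPM in anagen (15.5 to 17.3), 1.82 in catagen (1.47 to 2.23) and 5.08 in telogen (4.65 to 5.53). *IFI6*, an interferon-induced membrane protein, was at 8.11, 0.330 and 5.24 CPM, from 672, 17 and 542 UMIs. By CPM, catagen was therefore the lowest stage for *MX1* and *IFI6* and telogen the lowest for *ISG15*. For *ISG15* the log2 ratio of telogen to catagen was -0.51 (-0.59 to -0.44). Scaling by the median of gene ratios, described below, moved ratios of that pair by 0.50, which is nearly the whole difference. The log2 ratio of catagen to anagen was -3.17 for *MX1* (-3.49 to -2.87), -1.22 for *ISG15* (-1.28 to -1.15) and -4.62 for *IFI6* (-5.41 to -3.93). *OAS1*, which makes the messenger that activates RNase L, followed the order of *MX1* with 143, 7 and 48 UMIs. *RSAD2*, an antiviral enzyme, was near the limit of detection with 11, 1 and 2 UMIs.

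The 2 RNA sensors differed less. *IFIH1* was at 22.4 CPM in anagen, 15.7 in catagen and 15.1 in telogen, and *DDX58* at 7.76, 4.70 and 4.52 CPM. *PARP14*, an ADP-ribosyltransferase, was at 13.4, 9.74 and 9.56 CPM. All 3 were highest in anagen by less than 2-fold. *IFIT5*, an RNA-binding protein of the IFIT family, had its lowest level in anagen, with 4.76 CPM against 7.94 and 7.56. *IFIT2* was lowest in anagen too by value, at 1.07, 2.13 and 1.33 CPM from 89, 110 and 138 UMIs. Its log2 ratio of catagen to anagen was 0.99 (0.57 to 1.41). *IFI35* was highest in telogen, at 9.68, 7.70 and 12.9 CPM, with a log2 ratio of telogen to anagen of 0.41 (0.29 to 0.54). *IFIT1* had 20, 2 and 21 UMIs and *IFIT3* had 14, 10 and 12 UMIs. The IFIT, OAS and MX genes and *IFI6* belong to families with similar copies, and reads shared between copies could have been left out or split, which makes their levels uncertain.

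**Figure D1:**
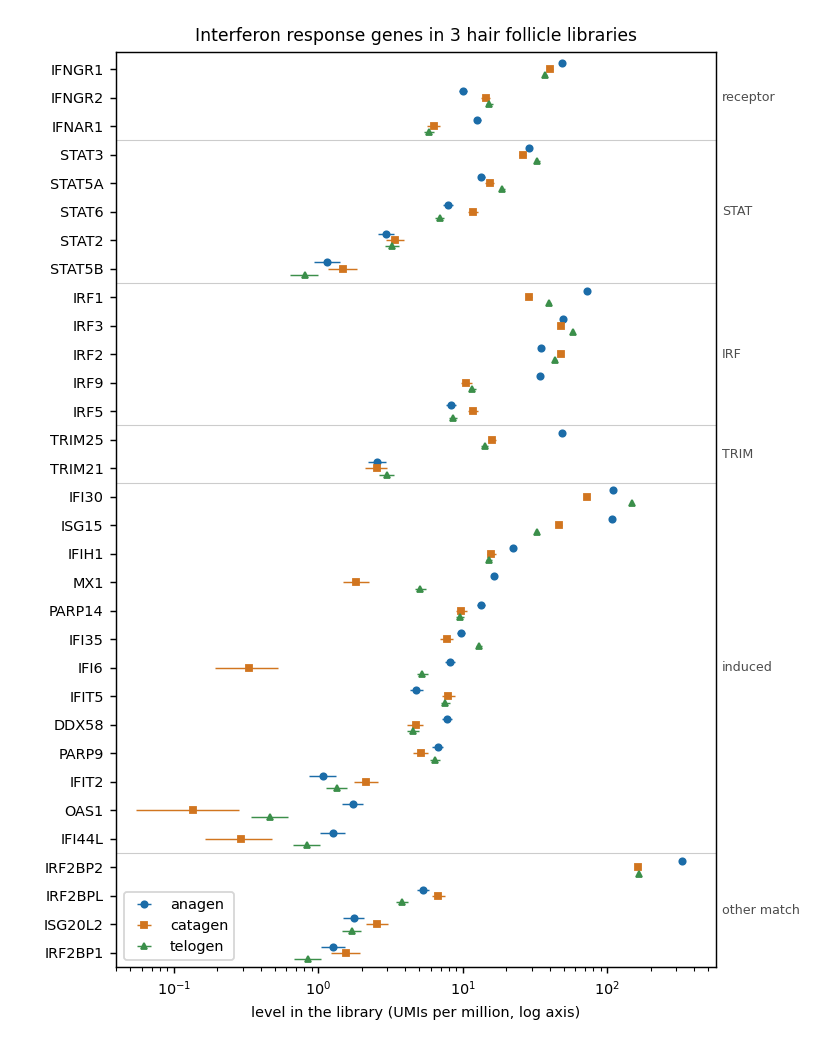
Levels of 32 members with at least 1 CPM in any library, grouped by role, on a log axis of CPM. Each symbol is 1 library and each bar its exact Poisson 95% interval; anagen lies to the right of both other stages for *TRIM25*, *IRF9*, *ISG15* and *MX1*, and the 3 symbols lie close together for *STAT3* and *IRF3*.

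A member was called here when it differed at least 2-fold and had at least 10 CPM in either library of the pair. Of 20 members that could be called for catagen against anagen, 7 were lower and 0 higher, where 3.47% of all 6054 genes were lower and 4.41% higher. The 7 were *MX1*, *IRF9*, *TRIM25*, *IRF1*, *ISG15*, *IRF2BP2* and *IFNAR1*. Of 19 members for telogen against anagen, 6 were lower and 0 higher, where 7.83% of all genes were lower and 3% higher. These 6 were *TRIM25*, *ISG15*, *MX1*, *IRF9*, *IFNAR1* and *IRF2BP2*. In both lists *MX1* and *IFNAR1* reached 10 CPM only in anagen, so they passed the minimum through the stage where they were high. The shares over all genes carry the same minimum. Of 18 members for telogen against catagen, 0 were lower and 1 higher, where 12% of all genes were lower and 4.1% higher. The higher one was *IFI30*, at 2.06-fold (log2 1.04, interval 0.99 to 1.09), and its log2 ratio was 0.91 among cells with at least 1000 detected genes, under 2-fold.

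The median log2 ratio of the members that could be called was -0.37 for catagen against anagen, -0.39 for telogen against anagen and 0.06 for telogen against catagen. All genes with at least 10 CPM had medians of 0.05, -0.18 and -0.25. *IFNAR1*, at 2.01-fold and 2.15-fold, and *IRF2BP2*, at 2.05-fold and 2.01-fold, lay nearest to the 2-fold limit among the members called against anagen. Scaling by the median of gene ratios in place of the UMI total moved every log2 ratio by -0.25 for catagen against anagen, 0.25 for telogen against anagen and 0.50 for telogen against catagen. The count of lower members was then 7 for catagen and 4 for telogen. Because anagen held no cell under 2404 UMIs, the counts were also taken over cells of at least that size in all libraries, which gave 7 and 6 lower members. Shares over all genes are not given for these alternative counts.

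**Figure D2:**
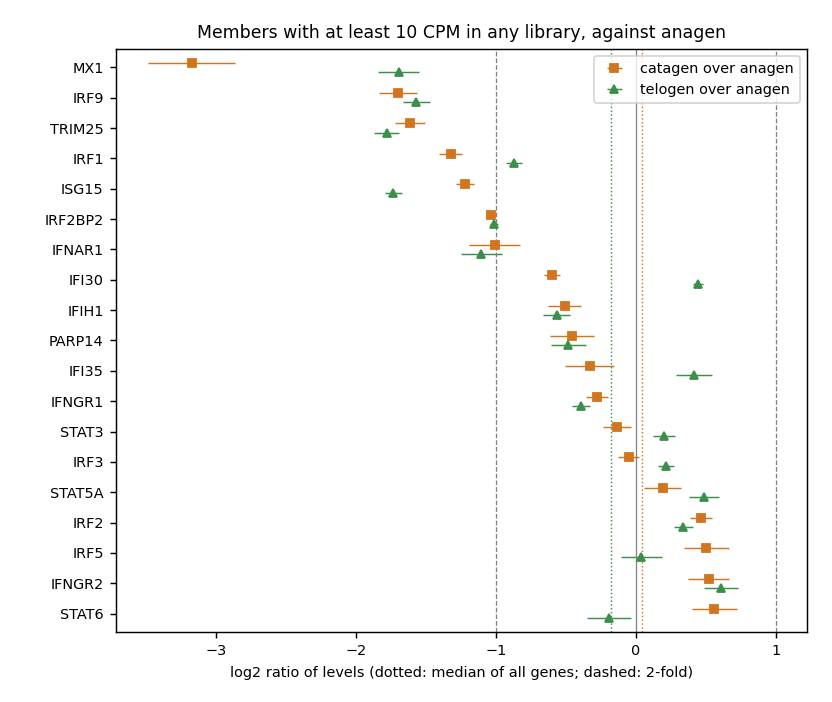
Log2 ratio of catagen to anagen and of telogen to anagen for 19 members with at least 10 CPM in any library, with exact 95% intervals. Dotted lines mark the medians of all genes (0.05 and -0.18) and dashed lines 2-fold; *MX1* lies farthest to the left in catagen (-3.17), and *TRIM25*, *IRF9* and *ISG15* lie beyond 2-fold lower in both stages.

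Of 83 further symbols of the interferon pathway that were searched, 54 were in the matrices. The kinase *JAK1* was at 149, 213 and 123 CPM in anagen, catagen and telogen, and *JAK2* at 35.7, 38.4 and 24.4 CPM. Of the ligands, *IFNG* had 0 UMIs in all 3 libraries, which allows up to 0.0362, 0.0582 and 0.029 CPM, and *IFNE* had 3, 1 and 3 UMIs. For catagen against anagen, 4 of 21 pathway genes were lower and 0 higher, where 3.47% of all genes were lower and 4.41% higher. The 4 were *SAMD9*, an antiviral factor (21.3 to 3.36 CPM), *TREX1*, a DNA exonuclease (33.0 to 6.71 CPM), *LY6E* (42.7 to 12.9 CPM) and *PSMB10* (20.8 to 9.80 CPM). Of this pair, *SAMD9*, *TREX1* and *PSMB10* reached 10 CPM in anagen only. For telogen against anagen, 2 of 22 were higher and 1 lower, where 3% of all genes were higher and 7.83% lower.

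The higher pair were *PSMB8* and *PSMB10*, catalytic subunits of the immunoproteasome, which cuts peptides for antigen presentation. *PSMB8* was at 8.83 CPM in anagen, 7.08 in catagen and 33.8 in telogen, and *PSMB10* at 20.8, 9.80 and 53.4 CPM. *PSME1* and *PSME2*, which form the activator of that proteasome, were at 102, 90.5 and 147 CPM and at 98.3, 67.4 and 135 CPM. Telogen was the highest and catagen the lowest stage for all 4, as for *IFI30*. *SOCS3*, an inhibitor of JAK signalling, was the lower one, at 15.2, 24.3 and 4.57 CPM. For telogen against catagen, 7 of 20 pathway genes were higher and 3 lower, where 4.1% of all genes were higher and 12% lower. The higher ones were *PSMB10*, *PSMB8*, *TREX1*, *SAMD9*, *LY6E*, *NMI* and *PSME2*, and the lower ones *SOCS3*, *PIAS1* and *HERC4*. Of this pair, *PSMB10*, *PSMB8*, *TREX1* and *SAMD9* reached 10 CPM in telogen only and *SOCS3* in catagen only. Against anagen, *PSMB8* likewise reached 10 CPM in telogen only and *SOCS3* in anagen only. These genes thus passed the minimum through the stage where they were high, and the shares over all genes carry the same minimum.

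The cells of the 3 libraries were clustered together without the members or the pathway genes, into 24 clusters. A cluster took a name with -like where at least 3 markers of a cell type were raised at least 1.5-fold, no other type had more markers among the 10 leading genes, and no rival type tied with it or, with a marker among those genes, had a larger share of its markers raised. These thresholds were set once the clusters were known. Basal epidermis-like cells (cluster 5, led by *CCL27* and *IL1R2*) numbered 729 in anagen, 951 in catagen and 839 in telogen. Suprabasal epidermis-like cells (clusters 2 and 9, with *KRT1* and *KRT10*) numbered 1878, 1684 and 1523. Bulge and outer root sheath-like cells (clusters 4, 7 and 13, with *IGFBP5*, *SFRP1* and *LHX2*) numbered 1359, 2909 and 1491. Mitotic-like cells (clusters 8 and 11) numbered 1707, 509 and 751. S phase-like cells (clusters 14 and 17) numbered 632, 444 and 417, of which cluster 17 held 180, 77 and 289. Cluster 14 carried all 6 S phase markers, but *DCN* and *DPP4*, markers of mesenchymal cells, were among its 10 leading genes beside the S phase markers *MCM5* and *MCM2*.

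Inner root sheath-like cells (cluster 12, with *KRT71*, *KRT25* and *KRT27*) numbered 595, 260 and 138, and hair cortex-like cells (cluster 15, with *KRT85* and *KRT35*) 398, 220 and 158. Keratinocyte-like cells (cluster 18) carried the study's keratinocyte markers *SPINK9*, *KLK10* and *KLK12* and were led by *KRT75* and *TF*. Among the markers used here, *KRT75* was listed for the companion layer. They numbered 155, 208 and 140. Cluster 20, of 93, 39 and 45 cells, carried both mesenchymal markers such as *COL1A2* and *PDGFRA* and the endothelial marker *PECAM1*, and took no name. Its share of cells was 0.776% in anagen, 0.323% in catagen and 0.310% in telogen. Immune-like cells (cluster 22, with *PTPRC* and *CSF1R* raised but no marker among its 10 leading genes) were 18, 19 and 50, too few in anagen and catagen for a comparison of stages, and lipid cells-like cells (cluster 19, led by *ELOVL3*) were 227, 53 and 44. No cluster took the name of melanocytes or of dermal sheath and pericytes. The 8 named compartments compared in the following are those with at least 50 cells in each library, which leaves out the immune-like and the lipid cells-like cells.

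Among the 8 named compartments *ISG15* was highest in the keratinocyte-like, inner root sheath-like and hair cortex-like cells. In keratinocyte-like cells it was at 980 CPM in anagen, 314 in catagen and 142 in telogen. In inner root sheath-like cells it was at 355, 211 and 349 CPM and in hair cortex-like cells at 170, 156 and 146 CPM. In basal epidermis-like cells it was at 43.8, 2.47 and 5.18 CPM, and in bulge and outer root sheath-like cells at 43.0, 9.40 and 35.8 CPM. The first 3 compartments thus stood above the basal and the bulge cells in every library, with the keratinocyte-like cells highest in anagen and catagen and the inner root sheath-like cells highest in telogen. These levels rest on few cells: 10 of 155 keratinocyte-like cells held 60.1% of the *ISG15* UMIs of that compartment in anagen, and 10 of 138 inner root sheath-like cells held 80.1% in telogen. Inner root sheath-like cells held 6.35%, 4.32% and 2.43% of the UMIs of their library but 20.9%, 19.6% and 26.1% of its *ISG15* UMIs. Unnamed cluster 20, outside this ranking, held *ISG15* too. Its induced genes without *IFI30* summed to 870, 685 and 832 CPM, and with *ISG15* also left out to 664, 475 and 527 CPM. The gap, which is *ISG15*, was above the hair cortex-like level in every library. Unnamed cluster 6 also had all 6 of the study's keratinocyte markers raised. Its induced genes without *IFI30* summed to 122, 75.4 and 61.4 CPM, and with *ISG15* also left out to 73.5, 43.2 and 49.2 CPM. The larger sum lay below the *ISG15* level of the keratinocyte-like cells in every library, so high *ISG15* was not shared by all cells with these markers.

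*MX1* and *IFI6* had a different distribution. *MX1* was at 48.4 CPM in anagen, 0.823 in catagen and 3.32 in telogen in basal epidermis-like cells. In bulge and outer root sheath-like cells it was at 23.5, 2.94 and 11.3 CPM. In inner root sheath-like cells, where *ISG15* was high, *MX1* was at 2.28 CPM in anagen and had 0 UMIs in catagen and telogen, with upper limits of 1.35 and 1.2 CPM. The anagen maximum of *MX1* among the named compartments was therefore in the basal epidermis-like cells and not where *ISG15* was highest. Unnamed clusters shared raised *MX1*. Over the 3 libraries together its log2 ratio over other cells was 1.24 in basal epidermis-like cells, 1.22 in cluster 0 and 1.34 in cluster 21. Cluster 0 had the basal markers *KRT15* and *COL17A1* raised. *IFI6* was at 14.1 CPM in anagen and 16.9 in telogen in bulge and outer root sheath-like cells, with 0 UMIs in 2909 catagen cells (upper limit 0.353 CPM). The share of cells with a UMI, taken on a random 1500 UMIs of each cell with smaller cells left out (0 anagen, 2263 catagen and 2932 telogen cells), was 6.04% for *MX1* in basal epidermis-like cells of anagen (16% unthinned). The same share was 0 of 398 in hair cortex-like cells (0.503% unthinned), which allows up to 0.754%.

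Among the 8 named compartments *IFI30* was highest in the suprabasal epidermis-like cells, with 220 CPM in anagen, 134 in catagen and 271 in telogen. In basal epidermis-like cells it was at 62.0, 39.5 and 78.2 CPM, and in hair cortex-like cells at 26.3, 18.7 and 26.7 CPM. Suprabasal cells stood above basal cells and these above cortex cells in every library, and catagen was the lowest stage in all 3 compartments. The few immune-like cells were at 165, 149.8 and 355 CPM from 18, 8 and 55 UMIs, above the suprabasal level in catagen and telogen by value. Unnamed cluster 6, whose raised markers are those of the study's keratinocytes, was at 218, 271 and 293 CPM.

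**Figure D3:**
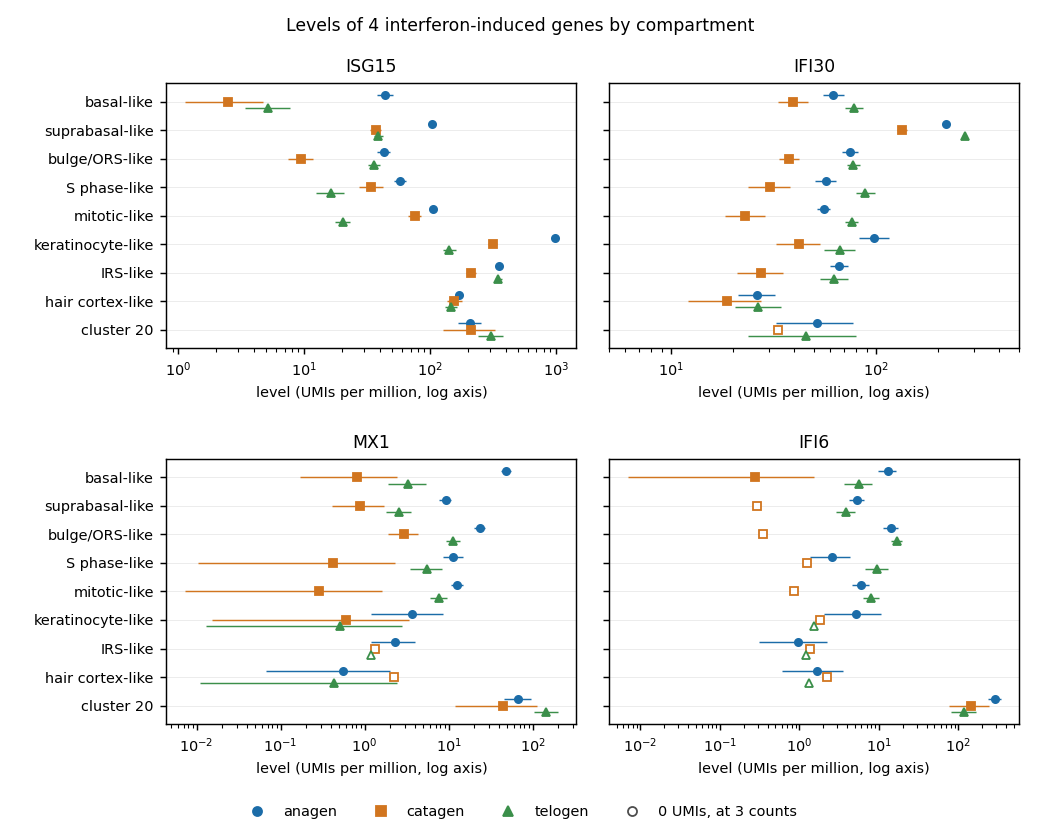
Levels of *ISG15*, *IFI30*, *MX1* and *IFI6* in the 8 named compartments and in cluster 20, by stage, on a log axis of CPM. Bars are exact Poisson 95% intervals and an open symbol marks 0 UMIs, drawn at the level of 3 counts; *ISG15* peaks in keratinocyte-like cells (980 CPM in anagen), *IFI30* in suprabasal epidermis-like cells, and *MX1* and *IFI6* in cluster 20.

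In each compartment a member was called when it was at least 2-fold above or below all other cells in each of the 3 libraries. In suprabasal epidermis-like cells 1 of 15 members was higher (*IFI30*) and 0 lower, where 1.36% of genes were higher and 6.78% lower. In basal epidermis-like cells 0 of 17 were higher and 1 was lower (*ISG15*), with 2.01% and 6.26% of genes. Basal and suprabasal cells shared raised levels of *IRF9* in anagen, 64.0 and 61.7 CPM against 17.9 in bulge and outer root sheath-like cells. *TRIM25* was at 122 CPM in suprabasal epidermis-like cells of anagen, 17.0 in catagen and 15.6 in telogen, so its high level in that compartment was seen in anagen and not in the other libraries. *IRF1* was highest among the 8 named compartments in the basal epidermis-like cells, with 163, 37.9 and 70.9 CPM, and *STAT6* was at 11.8, 19.5 and 11 CPM there.

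In bulge and outer root sheath-like cells 0 of 16 members were higher and 0 lower, where 4.15% of genes were higher and 3.79% lower. *IRF2* was at 61.5, 73.2 and 51.2 CPM and *IFIT5* at 7.14, 11.4 and 9.94 CPM in these cells. In mitotic-like cells 0 of 16 were higher and 1 lower (*IFI30*), with 7.33% and 2.17% of genes. In S phase-like cells 0 of 16 were higher and 0 lower, with 4.28% and 3.04% of genes. *PARP14* had the highest ratio over other cells in both dividing compartments, at 16, 17.3 and 16.2 CPM in mitotic-like and 14.9, 18.7 and 12.7 CPM in S phase-like cells. *IFIT5* came next, at 6.81, 12.4 and 8.53 CPM and at 6.08, 9.99 and 11.2 CPM. *IFNAR1* was at 10.8, 12.5 and 8.71 CPM in S phase-like cells, and *ISG15* at 105, 75.5 and 20.2 CPM in mitotic-like cells.

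The follicle's differentiated compartments had lower levels of several members than other cells, though not alone in this. In inner root sheath-like cells 1 of 15 members was higher (*ISG15*) and 6 lower (*IFIH1*, *IRF1*, *IFNGR1*, *STAT3*, *STAT5A* and *IRF2*), where 2.83% of genes were higher and 11.5% lower. In hair cortex-like cells 0 of 15 were higher and 7 lower (among them *IFIH1*, *IFI30*, *IRF1*, *STAT3*, *STAT5A* and *IRF2*), where 6.92% of genes were higher and 10.7% lower. *STAT3* was at 8.50, 8.24 and 7.01 CPM in cortex-like cells against 30.1, 30 and 49.1 CPM in bulge and outer root sheath-like cells. *IFIT5* was not among the lower genes there, at 7.40, 13.5 and 8.76 CPM. In inner root sheath-like cells *IRF3* was at 35.6, 35 and 36.7 CPM. In keratinocyte-like cells 1 of 15 was higher (*ISG15*) and 2 lower (*IFIH1* and *STAT5A*), with 4.53% and 6.57% of genes. *IRF5* was at 10.3, 10.9 and 9.11 CPM in the keratinocyte-like cells. The induced genes without *IFI30* and *ISG15* were at log2 -1.84, -1.80 and -2.21 over other cells there. In inner root sheath-like cells they were at -1.96, -1.96 and -2.34. Lipid cells-like cells and unnamed cluster 10 each had 3 members lower, of 15 and 16 (*IFIH1*, *IRF1* and *ISG15*). Shares over all genes are not given for these cells.

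The median log2 ratio of the testable members over other cells was -1.47, -1.33 and -1.12 in inner root sheath-like cells of anagen, catagen and telogen, against -0.16, -0.11 and -0.08 for all genes. It was -1.43, -1.36 and -1.66 in hair cortex-like cells, against 0.13, 0.26 and 0.09. In basal epidermis-like cells it was 0.72 in anagen but 0.10 in catagen and 0.08 in telogen, against -0.09, -0.32 and -0.11. The inner root sheath and cortex values were thus alike in the 3 libraries. The basal median was higher in anagen than in the other 2, but over a larger set of members, so these medians are not like for like.

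In cluster 20, where 1 catagen UMI is 11 CPM, a minimum level taken in the cluster itself would let genes pass only because they are high there. Its members were therefore counted among the 15 with at least 10 CPM in each whole library, a choice made after the values were seen. Of these, 4 were at least 2-fold higher than in other cells in each library (*IFIH1*, *IRF1*, *IFNGR1* and *IRF9*) and 2 lower, *IFI30* among them, where 3.8% of genes were higher and 2.37% lower. With this minimum, the same members were called in the 8 named compartments as before. *IRF1* was at 380, 254 and 225 CPM and *IFNGR1* at 210, 343 and 477 CPM in this cluster. *IRF9* was at 91.7, 99.4 and 72.5 CPM there, against 34.0, 10.4 and 11.4 CPM in other cells. Of the effectors outside that count, *MX1* was at 67.1, 44.2 and 145 CPM from 30, 4 and 38 UMIs. *IFI6* was at 286, 144 and 118 CPM, and the cluster held 128 of 672 *IFI6* UMIs in anagen, 13 of 17 in catagen and 31 of 542 in telogen. *IFIT1* and *IFIT3* are named there for their ratios over other cells and rest on 5, 1 and 2 and on 5, 1 and 4 UMIs in it. Of the pathway genes with at least 10 CPM in each whole library, 3 of 14 were higher there, *NMI*, *TBK1* and *EIF2AK2*, and 0 lower. The shares over all genes are the same 3.8% higher and 2.37% lower.

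The immune-like cells, 18, 19 and 50 in number, are given as a description. They held 3, 0 and 4 UMIs of *STAT4*, 0, 2 and 3 of *IRF8* and 0, 1 and 0 of *IRF4*, so the leukocyte members were seen there with few counts. *IRF5*, which is active in myeloid cells, was at 45.8, 131 and 58.1 CPM in them, by value above each of the 8 named compartments. The immune-like cells held 109273, 53394 and 154901 UMIs of all genes, so these levels rest on few counts too. In the lipid cells-like cells, *IFNAR1* was at 10.4, 3.44 and 5.89 CPM, *TRIM25* at 25.1, 34.4 and 13.3 CPM and *IRF2BP2* at 238, 285 and 69.3 CPM. They held 290973 UMIs of all genes in catagen and 678569 in telogen, so *IFNAR1* and *TRIM25* rest on few counts there.

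**Figure D4:**
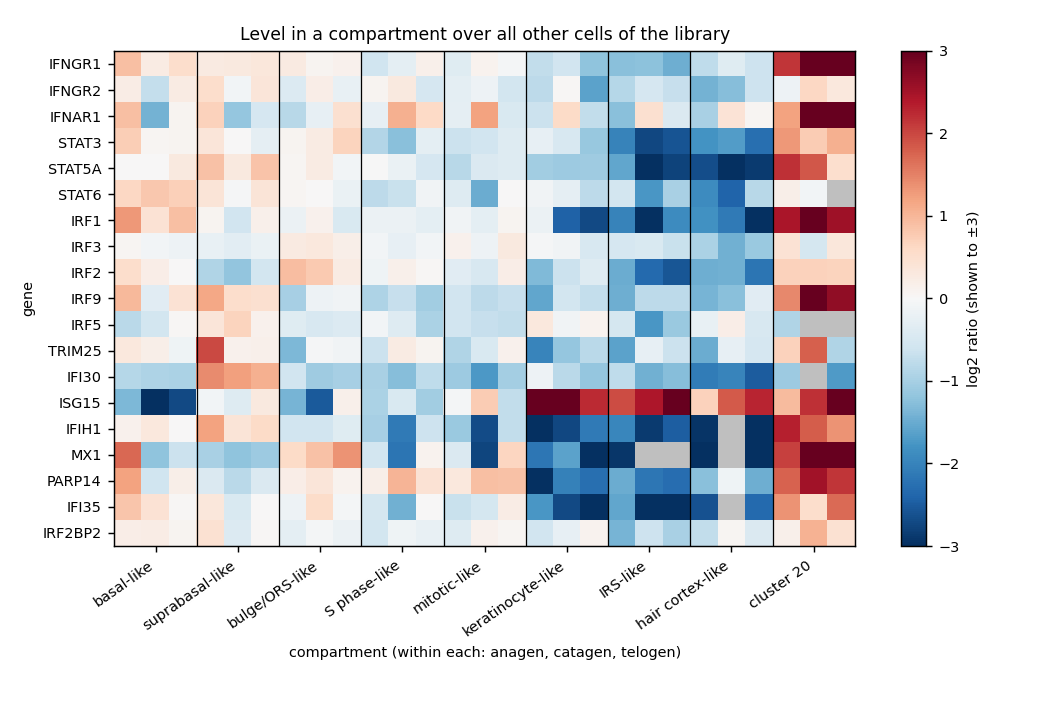
Log2 ratio of each of 19 members over all other cells of the same library, for 9 compartments and 3 stages, shown between -3 and 3, with grey where no UMI was seen. The inner root sheath-like and hair cortex-like columns are mostly below 0, with *ISG15* above 0 in both, and the cluster 20 columns are mostly above 0, with *IFI30* below 0.

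Within compartments, the stages could be compared in 13 clusters or named groups with at least 50 cells in each library. *IRF1* was lower in catagen than in anagen with an interval below 0 in 13 of 13, *ISG15* in 12, *IRF9* in 11, *MX1* in 10 and *TRIM25* in 9. For telogen against anagen the same held for *IRF1* in 13, *ISG15* in 12, *TRIM25* in 12, *IRF9* in 10 and *MX1* in 9. Of the other members called, *IRF2BP2* was lower in 12 for catagen and 13 for telogen, and *IFNAR1* in 5 and 7. These genes were lower in the whole libraries, which hold the same cells, so the counts are no separate support. Shares over all genes are not given for them. For *IFI30* the interval of telogen against anagen was above 0 in 8 and below 0 in 1, and that of telogen against catagen above 0 in 12. For *ISG15* the interval of telogen against catagen was below 0 in 7 and above 0 in 2. The compartments come from the same 3 libraries and are not replicates of a stage. In S phase-like cells cluster 14 held most anagen and catagen cells and cluster 17 most telogen cells.

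The size of the stage differences varied. In basal epidermis-like cells the log2 ratio of catagen to anagen was -5.88 for *MX1* and -4.15 for *ISG15*, the lowest printed value over the compartments for each. Both rest on few catagen UMIs. Where a compartment had 0 catagen UMIs of *MX1*, its ratio is a bound and could be lower. The induced genes without *IFI30* and *ISG15* were at -1.65 (-1.88 to -1.43) in the basal epidermis-like cells. In basal epidermis-like cells 11 of 23 members with at least 10 CPM in either stage were at least 2-fold lower in catagen and 0 higher. Of all genes there, 14.2% were lower and 5.4% higher. In telogen 10 of 23 were lower and 0 higher, where 13.7% of genes were lower and 3.79% higher. For telogen against catagen 17 members reached 10 CPM in these cells, so some of the 23 passed only through their anagen level. The shares over all genes carry the same minimum. In bulge and outer root sheath-like cells the induced genes without *IFI30* and *ISG15* differed less between telogen and anagen (-0.25, interval -0.40 to -0.11). The median over all genes there was -0.21, so the set lay near the general shift of these cells. In telogen few of these cells held most of the *IFI6* UMIs in this set, as given below, so its interval is too narrow. The ratio without those cells was not tested. In inner root sheath-like cells the whole induced set differed by -0.07 between telogen and anagen, with an interval of -0.18 to 0.03 that includes 0. Of its 1068 telogen UMIs there, 911 remained without *IFI30* and 35 without *IFI30* and *ISG15*. Few cells held most of that *ISG15*, as given above, so this ratio and its interval describe those cells more than the compartment. The set without *IFI30* and *ISG15* differed by -0.86 (-1.44 to -0.31). In keratinocyte-like cells the whole set differed by -1.57 in catagen (-1.71 to -1.43) and by -2.30 in telogen (-2.46 to -2.15). Without *IFI30* and *ISG15* these values were -0.69 (-1.46 to 0.07, which includes 0) and -0.80 (-1.55 to -0.06).

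When the 8 named compartments were given equal weight, so that their shares of cells no longer counted, the induced genes were at 390 CPM in anagen, 189 in catagen and 243 in telogen. The log2 ratio of catagen to anagen was then -1.15 for *ISG15*, -1.81 for *IRF1*, -1.83 for *IRF9* and -1.43 for *TRIM25*. Telogen against anagen gave -1.30, -1.17, -1.53 and -1.64. *IFNAR1* differed by -0.52 and -0.98. This average leaves out every unnamed cluster, cluster 20 among them, and the lipid cells-like and immune-like cells. Clusters 0, 1 and 3 alone were 12.9%, 4.66% and 7.34% of anagen cells and 15.9%, 21.2% and 12.1% of telogen cells. In catagen they were 16.1%, 6.50% and 6.24%. Immune-like cells were 0.150%, 0.158% and 0.345% of the cells of anagen, catagen and telogen. *ISG15*, *IRF1*, *IRF9* and *TRIM25* thus stayed lower in both later stages with the shares of these 8 compartments held equal. For *ISG15* the anagen average of 232 CPM draws much on the keratinocyte-like cells, where few cells held most of its UMIs.

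**Figure D5:**
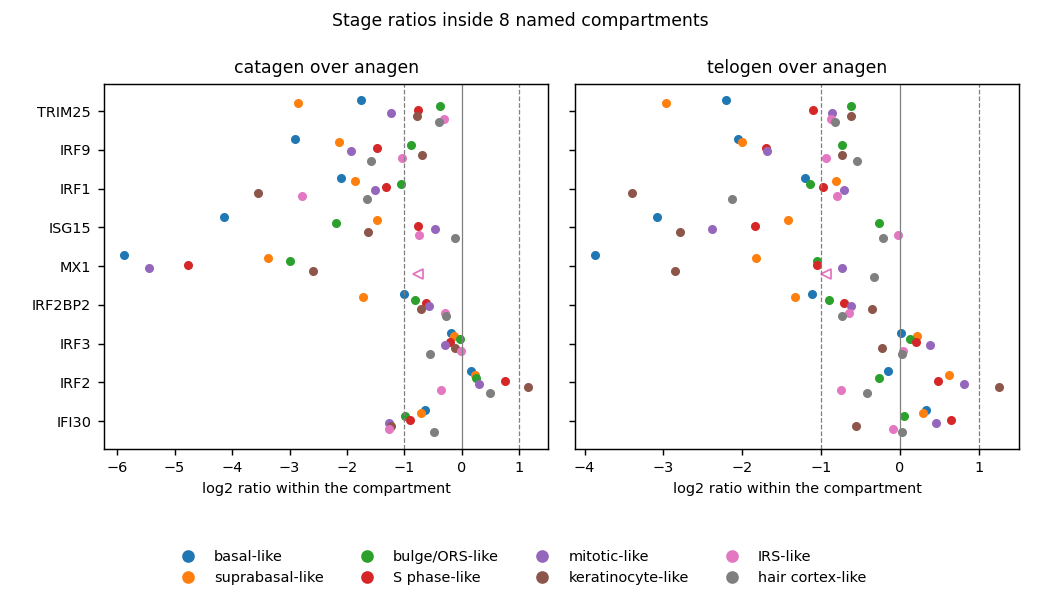
Log2 ratio of catagen to anagen and of telogen to anagen inside each of the 8 named compartments for 9 members, 1 symbol per compartment. Open symbols are bounds where a stage had 0 UMIs and dashed lines mark 2-fold; *IRF1*, *IRF9* and *ISG15* lie below 0 in all 8 compartments, whereas *IRF3* and *IRF2* lie on both sides of 0.

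Many UMIs of the effectors came from few cells. The 10 cells with the most *ISG15* held 9.78% of its UMIs in anagen, 14.3% in catagen and 28.6% in telogen, and single cells held up to 184, 56 and 194 UMIs. For *IRF1* the 10 highest cells held 2.98%, 5.95% and 3.1%. *ISG15* was thus more concentrated than *IRF1* in each library. In telogen bulge and outer root sheath-like cells, 10 of 1491 cells held 87.0% of the *ISG15* UMIs, and the 10 highest in *IFI6* held 88.1% of its UMIs. Cluster 4 carried most of this signal, with *ISG15* at 95.4 CPM and *IFI6* at 52.4 CPM in telogen, against 6.13 CPM and 0 UMIs (upper limit 0.836 CPM) in catagen.

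After thinning to 1500 UMIs, 8.49% of anagen cells had a UMI of *ISG15*, 3.12% of catagen and 2.31% of telogen cells (19.6%, 6.50% and 5.78% unthinned). In basal epidermis-like cells the thinned shares were 4.94%, 0.344% and 0.763%. For *MX1* over all cells they were 2.54%, 0.316% and 0.691% (6.87%, 0.630% and 2.42% unthinned). Anagen had the highest share of both genes before and after thinning. Cells with at least 3 UMIs of the induced genes at this depth made up 2.90% of anagen (2.61% to 3.22%), 0.837% of catagen (0.666% to 1.04%) and 1.32% of telogen cells (1.12% to 1.55%), against 24.0%, 6.77% and 20.6% unthinned. Among keratinocyte-like cells the thinned shares were 15.5%, 8.42% and 4%, and among basal epidermis-like cells 2.06%, 0.115% and 0.382%.

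Some effectors were seen in the same cells. In anagen, *MX1* was detected in 15.1% of the 152 cells with a UMI of *IFI6* (9.84% to 21.8%) and in 2.37% of the 11835 cells without one (2.11% to 2.67%), all thinned. In telogen bulge and outer root sheath-like cells, 7 of 16 cells with *IFI6* also had *ISG15*, against 16 of 1370 cells without it. In the same cells 6 of 14 with *MX1* also had *IFI6*, against 10 of 1372. Not every compartment showed such an excess. Over all anagen cells *MX1* was detected in 5.80% of cells with *ISG15* and in 2.23% of cells without it. In anagen mitotic-like cells these shares were 1.79% (3 of 168) and 2.01%. In anagen inner root sheath-like cells, where *ISG15* was high, 1 of 169 cells with it had *MX1*, against 6 of 426 without it. Over all anagen cells *IFI30* was detected in 14% of cells with a UMI of *ISG15* and in 13.5% of cells without one. In anagen bulge and outer root sheath-like cells alone it was detected in 12 of 54 cells with *ISG15*, 22.2% (12% to 35.6%), against 10.7% of those without it (9.03% to 12.5%). Doublets were left in the data, and their part in these pairs was not tested.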

How the data were processed

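The authors deposited, for each library, the counts of UMIs per gene and cell barcode as Cell Ranger wrote them (the file headers name version 4.0.0 in the anagen, 3.1.0 in the catagen and 6.0.2 in the telogen matrix, and the submitters' processing notes 2.1.1), without normalization. Reads had been aligned with STAR before that per the methods, and the genome build is not given in the sources used here. The members, the pathway list, the markers and the alternatives were chosen with earlier results of these data known.

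Cells with fewer than 200 detected genes were removed (13, 62 and 71). The 3 libraries were integrated with Seurat 5.3.0 in R 4.3.3 (2000 variable genes without members and pathway genes, 30 principal components, 20 neighbours, resolution 0.8). Of 109 markers, 94 were found. Scrublet in scanpy 1.11.5 called 0 doublets in each library and thus had not worked, so doublets were left in. Counts were summed per library or compartment with Python 3.11.15, numpy 2.4.6, scipy 1.17.1 and pandas 2.3.3, and figures drawn with matplotlib 3.10.9. Ratios against a stage with 0 UMIs were taken against 3 counts, as bounds. The procedure was tested on simulated counts. Depths run from 51537357 to 103430933 UMIs.

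All members entered the counts and sums. Named with values were those with at least 20 CPM in any library (13 genes, of which some are not reported here), the receptors, *STAT2*, *IRF9*, *DDX58*, *IFIH1*, *ISG15* and *MX1*, and the 3 members with the highest ratio over other cells in each named compartment. The other members named were picked after their values were seen, and the rest are given by group sums: 7 members stayed under 1 CPM in every library. The alternatives were other cell filters, scalings, minimum levels, folds, resolutions, thinning depths and cutoffs, each library clustered alone, removal of the top 5% of Scrublet scores and, added after the data were seen, the induced set without *IFI30* or without *IFI30* and *ISG15*, and compartment calls with the minimum level set in whole libraries. No sequence is shown.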

Additional observations from a re-analysis of the deposited data

Results flagged for a closer look

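In 4 cases the induced genes differed between stages in one compartment in the direction opposite to the whole library. Each compartment has 1 library per stage, so the difference was not tested. In cluster 1, which took no name and holds small cells (medians of 4012, 748.5 and 1021 UMIs in anagen, catagen and telogen), the log2 ratio of telogen to anagen was 0.82 for the induced set, against -0.31 in the whole libraries. The median over all genes in that cluster was 0.69, so the set lay near the general shift of the cluster. With *IFI30* and *ISG15* left out it was 0.39 in that cluster, under that median, against -0.44 in the whole libraries. In S phase-like cells the same set was at 0.24 for telogen against anagen, where the median over all genes was -0.19, with cluster 17 holding 289 of 417 telogen cells and 180 of 632 anagen cells. In keratinocyte-like cells the induced set was lower in telogen than in catagen (-0.73), against 0.52 in the whole libraries, where the median over all genes in these cells was -0.38, and *ISG15* held most of its UMIs there, at 314 CPM in catagen and 142 CPM in telogen.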

How the results depend on the processing

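No paired analysis was possible because each stage has 1 library, and for the same reason no library could be left out. No member was called higher against anagen under any alternative except at 1.5-fold, where 1 was higher in telogen. With no minimum level, 12 members were past 2-fold between catagen and anagen and 10 between telogen and anagen, all lower than anagen. Shares over all genes are not given for the counts in this section. For telogen against catagen the count of 1 covers both directions. It was 0 with at least 1000 genes per cell or with the smallest anagen UMI total. It was 2 with median-of-ratios scaling and 3 at 1 CPM, all higher in telogen. At 1.5-fold it was 3, with 2 higher and 1 lower in telogen. With no minimum level it was 8, with 7 higher and 1 lower in telogen.

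The log2 ratio of the induced set for catagen against anagen was -0.74 with at least 1000 genes per cell, -0.79 with the smallest anagen total, -1.09 with median-of-ratios scaling, -0.94 as a mean over cells, -1.05 with equal weight per compartment, -0.98 without *IFI30* and -0.75 without *IFI30* and *ISG15*. For telogen against anagen it was -0.065 with median-of-ratios scaling, -0.38 as a mean over cells, -0.69 with equal weight, -0.99 without *IFI30* and -0.44 without both. For telogen against catagen it was 0.42 with at least 1000 genes, 1.02 with median-of-ratios scaling, 0.57 as a mean over cells, 0.36 with equal weight, 0.31 without both genes and -0.0057 without *IFI30*, which is no difference beyond its interval.

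Median-of-ratios scaling also turned the difference of telogen from catagen in *IFNGR1* to 0.39, *TRIM25* to 0.33 and *IRF2* to 0.37, which follows from its shift of all ratios. The same shift of 0.50 nearly removed the difference of *ISG15*, which was -0.51 by CPM. In compartments, counts of called members became 1 in bulge and 7 in keratinocyte-like cells at 1 CPM, 2 in basal cells at resolution 0.4 or 1.2, 1 in S phase-like and 3 in hair cortex-like cells at resolution 0.4, and 0 in mitotic-like cells with each library clustered alone, which also gave 4 named anagen compartments at least 1.5-fold from other cells in the induced set. The induced set of catagen hair cortex-like cells over other cells turned to -0.25 at resolution 0.4, and no keratinocyte-like cluster was found at that resolution. The cause of these changes was not tested.

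Cells high in the induced set were 8.59%, 3.1% and 5.34% of anagen, catagen and telogen at 3000 UMIs, 24.0%, 6.77% and 20.6% with no thinning, 8.53%, 3.02% and 5.76% at 2 UMIs and 0.659%, 0.225% and 0.259% at 5 UMIs. The depth limits genes with few UMIs: 3 counts are 0.0362, 0.0582 and 0.029 CPM.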
